A study of Homo sapiens with 6 samples.

Results

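The 10 genes described here belong to the NF-kB pathway and were chosen by name: the subunits NFKB1, NFKB2 and RELB, the inhibitors NFKBIA and TNFAIP3, the IkB-like cofactor BCL3, the survival gene BIRC3, and the chemokines CXCL1, CXCL2 and CCL20. All 10 members were found among the 23524 genes of the deposited table, and all 10 could be tested. They were measured by RNA-Seq in Hep G2, a human liver tumor cell line, after stable lentiviral infection and puromycin selection. The 3 control libraries came from cells with the empty vector, and the 3 EFTUD2 libraries came from cells with a lentivirus that expresses EFTUD2, a GTPase of the spliceosome. The sources used here do not say whether the stable cells were a pool or a single clone, or whether the libraries of a group came from separate cultures, so the p-values measure only the spread between these libraries, which may be technical. The labels name no cytokine or other stimulus of the pathway for either group.

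NF-kB is a family of transcription factors that pair as dimers and are held in the cytoplasm by IkB proteins until a receptor such as that for TNF or IL-1 activates the IkB kinases. NFKB1 with RELA forms the canonical dimer, and NFKB2 with RELB the dimer of the noncanonical route. Among the first genes that active NF-kB switches on are its own inhibitors, NFKBIA and TNFAIP3, and chemokines that draw neutrophils and lymphocytes, and liver cells use the same pathway for survival and for the response to inflammation.

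Values were FPKM, sequenced fragments scaled by transcript length and by the output of each library, so levels of different genes can be set side by side. EFTUD2 itself was at 41.1, 54.4 and 46.3 FPKM in control replicates 1 to 3, against 106.6, 102.9 and 109.5 FPKM in EFTUD2 replicates 1 to 3, so every EFTUD2 library lay above every control (limma adjusted p = 0.13, or 0.028 without EFTUD2 replicate 3, with a range of 0.0018 to 0.53 over all alternatives). Over the 17222 genes tested with limma on log2(FPKM + 1), 0 had a p under 0.05 after Benjamini-Hochberg adjustment, 0% of those tested, whereas 757 higher and 1361 lower genes had an unadjusted p under 0.05. With each library rescaled by its median ratio these counts were 1124 higher and 846 lower. EFTUD2 replicate 3 stood apart, since its log2 values differed from those of replicates 1 and 2 with an SD over genes of 0.51 and 0.60, against 0.23 between replicates 1 and 2. Hepatocyte markers were high in every library, and their summed level ranged from 6833 to 10544 FPKM in the controls and from 9190 to 14050 FPKM in the EFTUD2 libraries. Of the markers of other cells, PTPRC and TYROBP (leukocytes) were at 0.02 FPKM or less, and the macrophage list summed to 775 to 2280 FPKM, of which LYZ alone made 743.6 to 2261 FPKM, with 4 of its 9 genes under 0.1 FPKM everywhere. The lymphocyte list (5 of 6 found, CD2 and CD3E at 0) and the endothelial list reached at most 5.03 and 1.77 FPKM. The fibroblast list summed to 0.53 to 1.65 FPKM in the controls and, without overlap, 2.35 to 4.91 FPKM in the EFTUD2 libraries, with 5 of 9 genes under 0.1 FPKM everywhere and COL1A2 at 0, and its part in the members' levels was not tested. In such bulk RNA, fewer cells of a kind and less RNA per cell cannot be told apart.

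Promoter sequence is shown because most members have a match to the NF-kB consensus close to their start. The kB consensus was searched on both strands in the 250 bases before and 50 bases after each RefSeq start (GRCh38.p14): 10 bases, namely 3 guanines, a purine, 2 bases of any kind, 2 pyrimidines and 2 cytosines. It was present in 8 of the 9 members with a promoter in the table and in 11.3% of all 35116 promoters of that length (13.4% of the 16140 promoters of genes tested). RELB had no entry, and the window of NFKB2 held no match. In the windows of 30 bases below, written 5′ to 3′ in the direction of transcription, capitals mark the match, which for some genes was read on the opposite strand.
CXCL1 (chr4:73869304-73869333, plus strand, match starting 79 bases before the start): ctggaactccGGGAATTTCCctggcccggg
CXCL2 (chr4:74099254-74099283, minus strand, 78 bases before): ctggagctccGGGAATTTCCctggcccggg
CCL20 (chr2:227813753-227813782, plus strand, 79 bases before): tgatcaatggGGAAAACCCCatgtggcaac
NFKB1 (chr4:102501300-102501329, plus strand, 49 bases before): cgacgtcagtGGGAATTTCCagccaggaag
NFKBIA (chr14:35404811-35404840, minus strand, 81 bases before): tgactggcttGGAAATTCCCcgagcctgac
TNFAIP3 (chr6:137867182-137867211, plus strand, 67 bases before): acgtgactttGGAAAGTCCCgtggaaatcc
BIRC3 (chr11:102317275-102317304, plus strand, 199 bases before): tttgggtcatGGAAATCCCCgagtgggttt
The windows of CXCL1 and CXCL2 were identical at 29 of 30 bases, and each held a further match on the other strand that overlaps the one shown. TNFAIP3 and BIRC3 each held 2 matches, of which the one farther from the start is shown. The match of BCL3 began 2 bases after its start and is not shown. The RefSeq start used here can differ from the GENCODE position given for a gene below. These are matches of letters and not measured binding sites.

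In the controls the members covered a wide range of levels. CCL20 was highest at 174.6 FPKM (mean of 3), followed by NFKBIA at 93.4, TNFAIP3 at 34.7, NFKB2 at 17.01, NFKB1 at 13.0, BCL3 at 12.3, RELB at 6.72, CXCL2 at 2.40, BIRC3 at 2.37 and CXCL1 at 0.19 FPKM. Neighbours in this order overlapped between libraries for TNFAIP3 and NFKB2, NFKB2 and NFKB1, NFKB1 and BCL3, and CXCL2 and BIRC3, while CCL20 and NFKBIA were separated narrowly, by 97.6 against 96.7 FPKM. In the EFTUD2 libraries the order at the top was the same, with CCL20 at 396.7, NFKBIA at 101.8 and TNFAIP3 at 48.7 FPKM. CXCL2, at 6.56 FPKM, then stood above RELB, at 4.79 FPKM, although the lowest CXCL2 library lay under the highest RELB library.

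**Figure D1:**
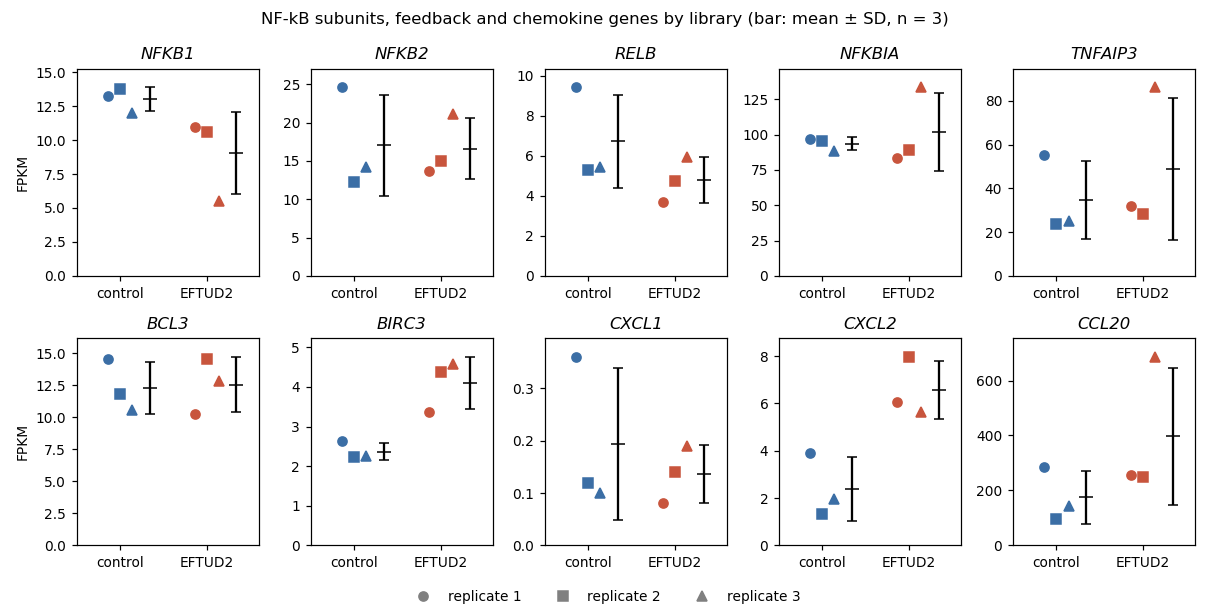
FPKM (vertical axes, from 0) of the 10 members in each library, with control libraries in blue, EFTUD2 libraries in red, a marker shape for each replicate and a bar for the mean ± SD of 3 libraries. CXCL2 and BIRC3 were higher in all 3 EFTUD2 libraries than in all 3 controls, NFKB1 was lower in all 3, and for TNFAIP3 and CCL20 control replicate 1 and EFTUD2 replicate 3 stood above the other libraries of their groups.

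Comparing EFTUD2-overexpressing with control cells, 0 of the 10 members passed the adjusted threshold. At the unadjusted threshold 2 members, CXCL2 and BIRC3, were higher and 0 were lower, where 4.4% of all genes tested were higher and 7.9% lower. The groups did not overlap for the same 2 members on the higher side and for NFKB1 on the lower side, beside 7.92% of all genes that were higher without overlap and 19.4% that were lower. For each of these 3 members the exact two-sided permutation test gave p = 0.1, the smallest that 3 libraries against 3 allow. The log2 fold change was above 0 for 7 members and below 0 for 3, with a median of 0.06, beside a median of -0.07 over all genes tested. With each library rescaled to a common sum, 5 of 10 members were above 0, and with each rescaled by its median ratio 7 were. This held for 4 members without EFTUD2 replicate 3 and for 8 without control replicate 1. Of all genes tested, 37.3% were above 0 as reported, 33.3% with a common sum and 50.3% with the median ratio. The share was 40.6% without EFTUD2 replicate 3 and 39.8% without control replicate 1.

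Of the subunits, NFKB1 (Entrez gene 4790, chromosome 4 from 102501329 to 102617302 in GRCh38), which encodes the p105 precursor of the p50 subunit, was at 13.2, 13.7 and 12.0 FPKM in control replicates 1 to 3, against 10.97, 10.6 and 5.54 FPKM in EFTUD2 replicates 1 to 3. All EFTUD2 libraries lay below all controls, with replicate 3 far below the other two. The means were 13.0 ± 0.88 and 9.03 ± 3.03 FPKM (SD, n = 3 each). The log2 fold change of NFKB1 was -0.53 (standard error 0.24, 95% interval -1.11 to 0.04, limma adjusted p = 0.41). Without EFTUD2 replicate 3 the log2 fold change was -0.25, with an adjusted p of 0.26 from limma, which ranged from 0.22 to 0.68 over all alternatives.

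NFKB2 (Entrez gene 4791, chromosome 10 from 102394110 to 102402529) encodes the p100 precursor of p52. It was at 24.6, 12.2 and 14.3 FPKM in the controls, against 13.6, 15.0 and 21.1 FPKM in the EFTUD2 libraries. Control replicate 1 was the highest of all 6 and the groups overlapped, with a log2 fold change of 0.00 (95% interval -0.66 to 0.66, limma adjusted p = 0.998). RELB (Entrez gene 5971, chromosome 19 from 45001430 to 45038198), the partner of p52, was at 9.42, 5.31 and 5.43 FPKM in the controls, against 3.67, 4.73 and 5.96 FPKM in the EFTUD2 libraries. Its log2 fold change was -0.39 (standard error 0.25, 95% interval -0.98 to 0.19, limma adjusted p = 0.47), and without control replicate 1 it was -0.16. The subunits outside the members, RELA and REL, were at 33.6 ± 3.99 and 2.55 ± 0.52 FPKM in control and at 30.9 ± 1.09 and 2.32 ± 0.07 FPKM in EFTUD2 cells (SD, n = 3 each). Both differences were smaller than the spread among the controls (limma adjusted p of 0.64 for RELA and 0.78 for REL). RELA lay between 29.96 and 38.1 FPKM in all 6 libraries.

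Among the genes of negative feedback, NFKBIA (Entrez gene 4792, chromosome 14 from 35401511 to 35404749), which encodes IkB-alpha, was at 96.7, 95.4 and 88.2 FPKM in the controls, against 83.2, 88.8 and 133.4 FPKM in the EFTUD2 libraries. EFTUD2 replicate 1 lay below the controls, replicate 2 within their range and replicate 3 above them (log2 fold change 0.09, standard error 0.19, 95% interval -0.35 to 0.53, limma adjusted p = 0.82). Without EFTUD2 replicate 3 the log2 fold change of NFKBIA was -0.12.

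TNFAIP3 (Entrez gene 7128, chromosome 6 from 137867188 to 137883312) encodes A20, a ubiquitin-editing enzyme that shuts off signaling from the TNF receptor. Its levels were 55.0, 23.8 and 25.2 FPKM in the controls, against 31.9, 28.2 and 86.1 FPKM in the EFTUD2 libraries. Control replicate 1 was 2.31 times control replicate 2, and EFTUD2 replicate 3 was 3.05 times EFTUD2 replicate 2, so the spread within each group was wider than the difference between the means. The log2 fold change was 0.40 (standard error 0.49, 95% interval -0.76 to 1.56, limma adjusted p = 0.69), and without EFTUD2 replicate 3 it was -0.10. An antisense gene on the opposite strand, AL357060.1, overlaps 95 of the 5051 exon bases of TNFAIP3 in GENCODE release 29, and whether the libraries kept the strand is not given in the sources used here.

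BCL3 (Entrez gene 602, chromosome 19 from 44747705 to 44760044), an IkB-like nuclear protein that binds p50 and p52 dimers, was at 14.6, 11.8 and 10.6 FPKM in the controls, against 10.3, 14.6 and 12.9 FPKM in the EFTUD2 libraries. The groups overlapped over nearly their whole range, with a log2 fold change of 0.02 (95% interval -0.38 to 0.43, limma adjusted p = 0.95).

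BIRC3 (Entrez gene 330, chromosome 11 from 102317450 to 102339403) encodes cIAP2, a ubiquitin ligase of the TNF receptor complex that protects cells from death and is itself an NF-kB target. It was at 2.63, 2.22 and 2.26 FPKM in the controls, against 3.36, 4.39 and 4.57 FPKM in the EFTUD2 libraries. All 3 EFTUD2 libraries were above all controls, and both groups were narrow, at 2.37 ± 0.23 and 4.11 ± 0.65 FPKM (SD, n = 3 each), a ratio of 1.73. The log2 fold change was 0.59 (standard error 0.15, 95% interval 0.24 to 0.95), with an unadjusted p of 0.0054 and an adjusted p of 0.39 from limma. It stayed between 0.53 and 0.70 as each library was left out in turn, and the adjusted p ranged from 0.0077 to 0.68 over all alternatives. It was under 0.05 in both of limma's fits with a weight per library. With array weights, whose estimation stopped before it converged, the weights were 27.7 for control replicate 3, 0.035 for EFTUD2 replicate 1, 0.26 for EFTUD2 replicate 3 and between 0.95 and 2.30 for the other libraries, so the fit rested mainly on control replicate 3 and EFTUD2 replicate 2. The other fit used gene-by-gene weights.

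**Figure D2:**
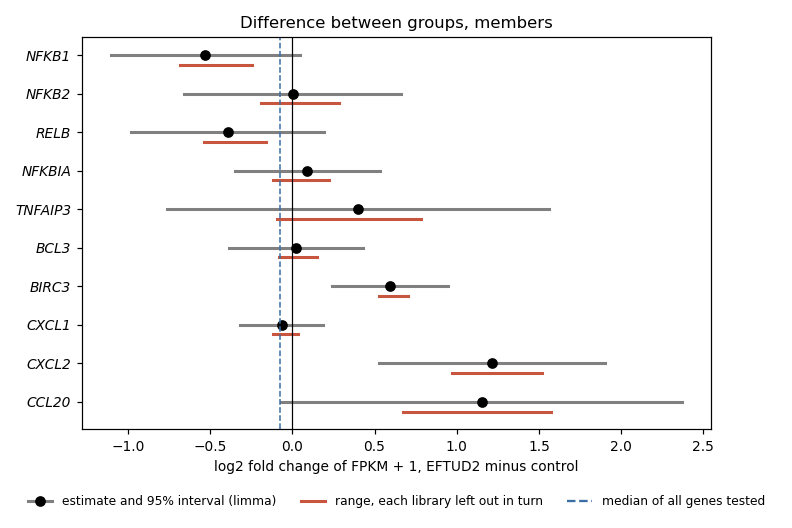
Log2 fold change of FPKM + 1 (horizontal axis, EFTUD2 minus control) for each member, with the 95% interval from limma in grey, the range when each library was left out in turn in red, and the median of all genes tested (-0.07) as a dashed line. The intervals of CXCL2 and BIRC3 lie above 0, those of the other 8 members include it, and the red ranges of NFKB2, NFKBIA, TNFAIP3, BCL3 and CXCL1 cross 0.

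The chemokine members differed from each other most. CXCL2 (Entrez gene 2920, chromosome 4 from 74097035 to 74099293), a neutrophil attractant that binds CXCR2, was at 3.92, 1.31 and 1.97 FPKM in the controls, against 6.06, 7.97 and 5.66 FPKM in the EFTUD2 libraries. Every EFTUD2 library was above every control, although control replicate 1 was 2.99 times control replicate 2. The means were 2.40 ± 1.36 and 6.56 ± 1.23 FPKM (SD, n = 3 each), a ratio of 2.73. The log2 fold change of CXCL2 was 1.21 (standard error 0.29, 95% interval 0.53 to 1.90), with an unadjusted p of 0.0043 and an adjusted p of 0.39 from limma. It lay between 0.97 and 1.52 as each library was left out, and over all 6 libraries it was the largest among the members. The adjusted p ranged from 0.0097 to 0.68 over all alternatives, and was under 0.05 in the same 2 weighted fits (0.010 with the array weights that did not converge).

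CXCL1 (Entrez gene 2919, chromosome 4 from 73869393 to 73871242) lies in the same chemokine cluster, binds the same receptor and carries the same kB match. Its levels were 0.36, 0.12 and 0.10 FPKM in the controls, against 0.08, 0.14 and 0.19 FPKM in the EFTUD2 libraries. The groups overlapped at this low level, with a log2 fold change of -0.06 (95% interval -0.32 to 0.19, limma adjusted p = 0.77), and the values, deposited with 2 decimals, hold few digits. CXCL3, another chemokine of this cluster, was as low, at 0.37, 0.08 and 0.06 FPKM in the controls, against 0.11, 0.25 and 0.09 FPKM in the EFTUD2 libraries. Of the 1169 stretches of 50 bases in the GENCODE transcript of CXCL2, 60 also occur in that of CXCL1 and 54 in that of CXCL3, while 0 stretches of 100 bases are shared. As the read length is not given in the sources used here, reads from these stretches may have been split between the genes, and their levels are uncertain to that extent.

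CCL20 (Entrez gene 6364, chromosome 2 from 227805739 to 227817564), the ligand of CCR6 that attracts lymphocytes and dendritic cells, was the most abundant member, at 284.6, 97.6 and 141.8 FPKM in the controls, against 256.8, 247.2 and 686.0 FPKM in the EFTUD2 libraries. Control replicate 1 lay above EFTUD2 replicates 1 and 2, so the groups overlapped, and EFTUD2 replicate 3 was 2.78 times replicate 2. The ratio of means was 2.27, and the log2 fold change of 1.15 (standard error 0.51, 95% interval -0.07 to 2.37) had an unadjusted p of 0.061 and an adjusted p of 0.40 from limma. Without EFTUD2 replicate 3 the log2 fold change of CCL20 was 0.67, and without control replicate 1 it was 1.57, with unadjusted p of 0.16 and 0.022 from limma. CCR6 was at 3.03 to 3.19 FPKM in the controls and 1.49 to 3.18 FPKM in the EFTUD2 libraries. CXCR2, the receptor of CXCL1 and CXCL2, and the related CXCR1 reached at most 0.04 FPKM (the 3 receptors were chosen after their values were seen).

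**Figure D3:**
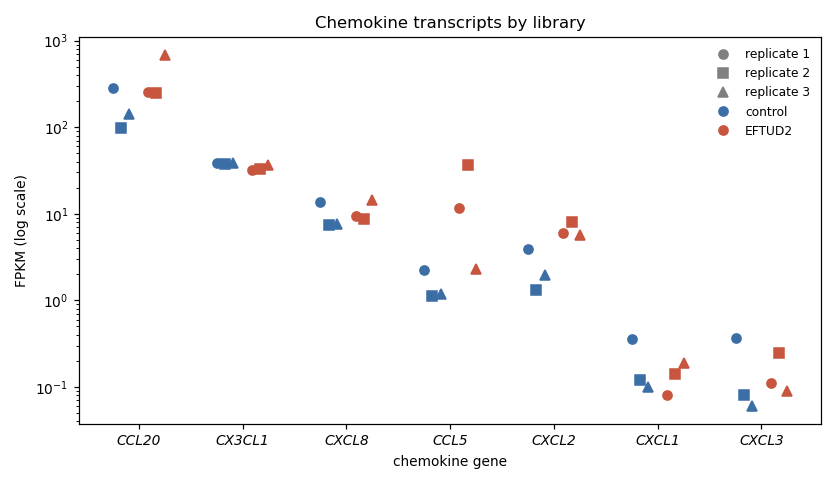
FPKM (vertical axis, log scale) of 7 chemokine genes in each library, with controls in blue, EFTUD2 libraries in red and a marker shape for each replicate. CCL20 spans 97.6 to 686.0 FPKM, CXCL2 is separated between the groups, CXCL1 and CXCL3 stay at or below 0.37 FPKM, and CCL5 is highest in EFTUD2 replicate 2 (36.9 FPKM) and lowest of its group in replicate 3 (2.30 FPKM).

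A shared order of libraries ran through the members. Control replicate 1 was the highest control for 9 of the 10 members, all but NFKB1, and EFTUD2 replicate 3 was the highest EFTUD2 library for 7 (NFKB2, RELB, NFKBIA, TNFAIP3, BIRC3, CXCL1 and CCL20). Both held together for those 7 members, and for 19.8% of all genes tested. Over all genes tested, control replicate 1 was the highest control for 43.5% and EFTUD2 replicate 3 the highest EFTUD2 library for 31.3%. The sums of the hepatocyte, macrophage and lymphocyte lists were highest in the same 2 libraries. The endothelial sum was instead highest in control replicate 3 (1.68 FPKM) and EFTUD2 replicate 1 (1.77 FPKM). The fibroblast sum was highest in control replicate 1 (1.65 FPKM) and EFTUD2 replicate 2 (4.91 FPKM). Single markers also departed from their list, as CD68 (macrophage) and CD79A (lymphocyte) were the lowest of their group in control replicate 1 and EFTUD2 replicate 3. In the hepatocyte list FGB was lowest of its group in EFTUD2 replicate 3 (62.4 FPKM). SERPINA1 and TF were the highest controls in control replicate 3 (2448 and 761 FPKM), while ALB, AFP, APOA1, APOB and TTR followed the sum. The hepatocyte sum was at 10544, 6833 and 9089 FPKM in control replicates 1 to 3, against 9190, 9199 and 14050 FPKM in EFTUD2 replicates 1 to 3. The macrophage sum, almost all LYZ, was at 2280, 775 and 1170 FPKM, against 1113, 885 and 1748 FPKM, and the lymphocyte sum at 5.03, 3.27 and 4.75 FPKM, against 3.56, 2.91 and 4.36 FPKM. The part of these lists in the members' levels was not tested. In the pathway list described below, both held for 17 of 66 genes (25.8%). EFTUD2 replicate 3 was the lowest EFTUD2 library for 59.1% of that list, beside 57.8% of all genes tested. Among the 17, ICAM1 and GADD45B are given as examples, picked because they showed this order. ICAM1, an adhesion molecule, was at 102.8, 56.5 and 67.0 FPKM in the controls, against 82.5, 80.7 and 140.1 FPKM in the EFTUD2 libraries, and GADD45B, a stress gene, at 9.80, 2.39 and 3.64 against 4.78, 5.42 and 18.7 FPKM. TNF itself, picked in the same way, was at 1.71, 0.38 and 0.35 FPKM in the controls, against 0.16, 0.10 and 1.30 FPKM in the EFTUD2 libraries, and was thus also highest in these 2 libraries.

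**Figure D4:**
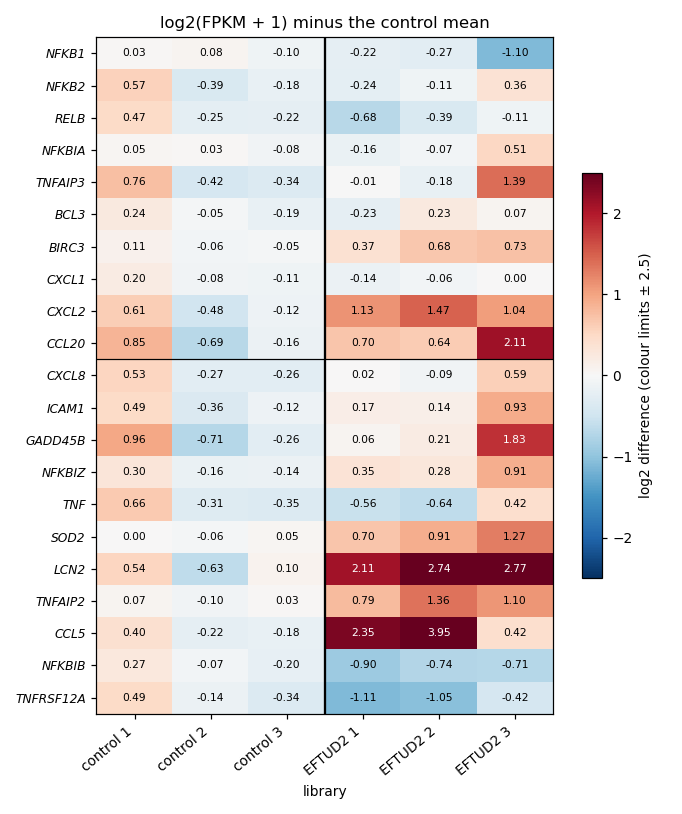
Difference of log2(FPKM + 1) from the control mean (colour and printed number, colours end at ± 2.5) for the 10 members, above the line, and 11 other genes of the pathway, in each library (columns). TNFAIP3 and CCL20 stand at 0.76 and 0.85 in control replicate 1 and at 1.39 and 2.11 in EFTUD2 replicate 3. CXCL2, BIRC3, CCL20, ICAM1, GADD45B, NFKBIZ, SOD2, LCN2, TNFAIP2 and CCL5 are above 0 in all 3 EFTUD2 libraries. NFKB1, RELB, NFKBIB and TNFRSF12A are below 0 in all 3. The 11 other genes are a selection and do not stand for the whole pathway list.

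As a description over the 6 libraries, whose points share both group and library, the 9 members whose mean reached 1 FPKM were compared by Pearson's r of log2(FPKM + 1). The closest pairs were TNFAIP3 and CCL20 (r = 0.90), BIRC3 and CXCL2 (0.89) and NFKB2 with TNFAIP3 (0.87), and NFKB1 ran opposite to CCL20 (-0.85) and NFKBIA (-0.81). Among 12493 other genes whose mean reached 1 FPKM, the most alike were TBP for NFKB1 (r = 0.9996), BRWD1 for TNFAIP3 (0.9969), ASIC1 for CCL20 (0.9970), IFNLR1 for NFKBIA (0.9930), PKLR for BIRC3 (0.9882), INPP4A for RELB (0.9979), PRRT1 for NFKB2 (0.9924) and HIST2H2AA3 for BCL3 (0.9220). The gene most like CXCL2 (0.9977) is listed only under an identifier of the sequencing provider. The profile of NFKB1 was common, with 22.7% of these genes at r of 0.9 or more, while that of CXCL2 was shared by 0.672% and that of BCL3 by 2 genes. For the other members the share lay between 1.06% (BIRC3) and 4.37% (TNFAIP3). Each gene named as most alike had the highest of 12493 values over 6 libraries, so its r is no sign of a link by itself.

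The other genes of the pathway were taken from a list of 78 set out by role, of which 66 could be tested. None had an adjusted p under 0.05 by limma. At the unadjusted threshold 6 were higher and 8 lower, and the groups did not overlap for 7 on the higher and 15 on the lower side. These were 9.09% and 12.1% of the list at the unadjusted threshold and 10.6% and 22.7% without overlap, beside 4.4% and 7.9%, and 7.92% and 19.4%, of all genes tested. The median log2 fold change was -0.12, beside -0.07 over all genes tested.

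All 7 genes listed as kinases, a role that here includes the scaffold IKBKG, had a log2 fold change below 0, from -0.43 to -0.06. So did 11 of the 12 genes listed as adaptors, on a scale where 62.7% of all genes tested were below 0. None of these kinase and adaptor genes passed the adjusted threshold. With the median of ratios or quantile scaling 6 of the 7 listed as kinases were below 0. Without EFTUD2 replicate 3 this held for 5, and with either kind of library weights for 4. Of the genes listed as adaptors, 9 to 12 were below 0 over the scalings, weights and libraries left out. The 9 were with the median of ratios and with gene-by-gene weights. IKBKG (NEMO), the scaffold of the IkB kinase complex, was at 20.8, 23.3 and 20.7 FPKM in the controls, against 16.6, 18.1 and 12.8 FPKM in the EFTUD2 libraries (log2 fold change -0.43, standard error 0.15, limma adjusted p = 0.40). IKBKB, the kinase that marks IkB for destruction, was at 8.77 ± 0.45 and 7.07 ± 0.72 FPKM (SD, n = 3 each). Of the genes listed as adaptors, RIPK1 was at 10.2, 9.73 and 9.59 FPKM in the controls, against 7.98, 8.99 and 2.84 FPKM in the EFTUD2 libraries. TAB1 was at 12.8 ± 2.30 and 8.55 ± 1.34 FPKM (SD, n = 3 each).

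Of the other inhibitors, NFKBIB, which encodes IkB-beta, was at 24.5, 19.2 and 17.4 FPKM in the controls, against 10.3, 11.7 and 11.9 FPKM in the EFTUD2 libraries. The groups did not overlap, at a log2 fold change of -0.78 (standard error 0.15, 95% interval -1.14 to -0.43), an unadjusted p of 0.0013 and an adjusted p of 0.27 from limma. CYLD, a deubiquitinase that damps the pathway, was at 6.01 ± 2.24 and 3.96 ± 0.45 FPKM (SD, n = 3 each, log2 fold change -0.46, limma adjusted p = 0.42). Among the receptors, TNFRSF12A, the receptor of TWEAK, was at 137.5, 88.5 and 76.8 FPKM in the controls, against 44.7, 46.7 and 73.0 FPKM in the EFTUD2 libraries (log2 fold change -0.86, standard error 0.27, limma adjusted p = 0.40). CD40 differed little in size, at 4.27 ± 0.11 and 3.91 ± 0.13 FPKM (SD, n = 3 each), though without overlap.

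**Figure D5:**
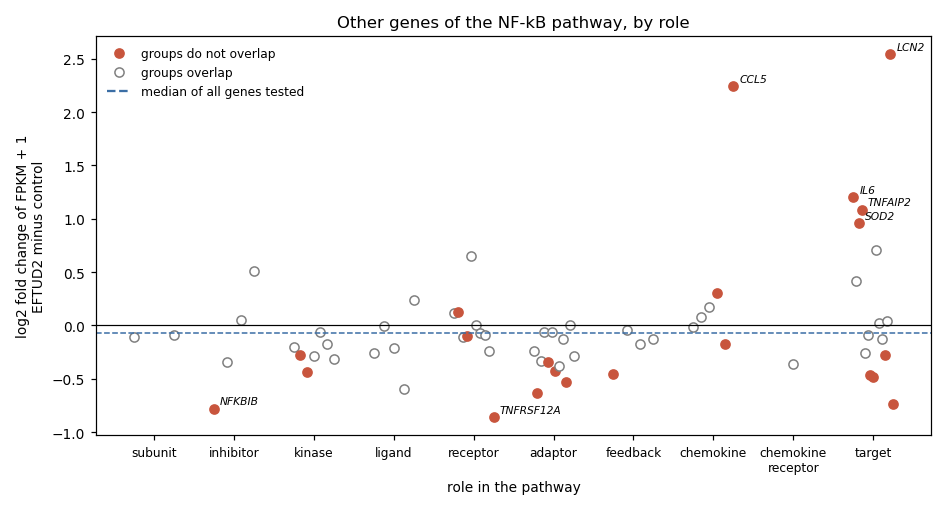
Log2 fold change of FPKM + 1 (vertical axis, EFTUD2 minus control) of the 66 tested genes of the pathway list, by role, with filled points where the groups do not overlap and a dashed line at the median of all genes tested (-0.07). The 7 genes listed as kinases lie below 0 on the deposited scale (6 of 7 with the median of ratios or quantile scaling). On the deposited scale LCN2 (2.54) and CCL5 (2.24) lie farthest above 0.

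Of the 15 targets tested, 8 had a log2 fold change above 0 and 7 below, and the groups did not overlap for 4 on either side. The share below 0 was 46.7%, beside 62.7% of all genes tested. The share without overlap was 26.7% on either side, beside 7.92% of all genes tested on the higher and 19.4% on the lower side. With a common sum the split was 6 above and 9 below, as it was without control replicate 2, and without control replicate 1 it was 11 above and 4 below. LCN2, a secreted iron-binding protein of the acute response, was at 17.02, 7.02 and 12.3 FPKM in the controls, against 52.6, 82.2 and 83.8 FPKM in the EFTUD2 libraries. Its log2 fold change was 2.54 (standard error 0.32, 95% interval 1.78 to 3.30), at an unadjusted p of 0.00011 and an adjusted p of 0.19 from limma. Without EFTUD2 replicate 3 the adjusted p of LCN2 was 0.048, and it ranged from 0.0063 to 0.56 over all alternatives. TNFAIP2 was at 0.60, 0.43 and 0.56 FPKM in the controls, against 1.64, 2.91 and 2.28 FPKM in the EFTUD2 libraries (log2 fold change 1.08, standard error 0.16, limma adjusted p = 0.21). With pseudocounts of 0.1 and 0.01 the log2 fold change of TNFAIP2 was 1.89 and 2.06, and in the 2 weighted fits its adjusted p from limma was 0.0062 and 0.015, within a range of 0.0062 to 0.68 over all alternatives. SOD2, the mitochondrial superoxide dismutase, chosen after its values were seen, was at 157.1, 151.0 and 162.9 FPKM in the controls, against 255.5, 294.8 and 380.1 FPKM in the EFTUD2 libraries (log2 fold change 0.96, standard error 0.16, limma adjusted p = 0.25). On the lower side PLAU, the urokinase plasminogen activator, likewise chosen after its values were seen, was at 6.05, 7.41 and 7.82 FPKM in the controls, against 4.41, 4.28 and 2.97 FPKM in the EFTUD2 libraries (log2 fold change -0.74, standard error 0.17, limma adjusted p = 0.39).

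Among the other chemokines, CCL5, which attracts T cells, was at 2.24, 1.12 and 1.17 FPKM in the controls, against 11.5, 36.9 and 2.30 FPKM in the EFTUD2 libraries. The lowest EFTUD2 library barely passed the highest control, and replicate 3 was 0.062 times replicate 2, where CCL20 in replicate 3 was 2.78 times its level in replicate 2. The log2 fold change of CCL5 was 2.24 (standard error 0.80, limma adjusted p = 0.40), and without EFTUD2 replicate 3 it was 3.15, with an adjusted p of 0.048 from limma. CCL5 was then above LCN2, at 2.43, as it was with the smaller pseudocounts and in both weighted fits (adjusted p range of CCL5 over all alternatives 0.0077 to 0.68). CXCL8, a further ligand of CXCR2, was at 13.8, 7.51 and 7.54 FPKM in the controls, against 9.39, 8.65 and 14.5 FPKM in the EFTUD2 libraries, with overlapping groups (log2 fold change 0.17, 95% interval -0.49 to 0.84, limma adjusted p = 0.76). CX3CL1, a membrane-bound chemokine, was at 38.1 ± 0.87 and 33.6 ± 2.23 FPKM (SD, n = 3 each, log2 fold change -0.18, limma adjusted p = 0.44). With gene-by-gene weights, chosen after seeing the data, the adjusted p from limma was under 0.05 for 4 further genes of the list named here, namely NFKBIB (0.0099, range over all alternatives 0.0099 to 0.68), IKBKG (0.045, range 0.045 to 0.68), TNFRSF12A (0.019, range 0.019 to 0.68) and CX3CL1 (0.039, range 0.039 to 0.83).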

How the data were processed

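The authors extracted RNA from Hep G2 cells with TRIzol, selected poly-A RNA and sequenced it on the BGISEQ-500. Per the labels, HISAT2, Bowtie2, RSEM and DESeq2 were used with hg38, without stated roles or versions. The deposited table holds FPKM per gene for 6 libraries, rounded to 2 decimals. Depth is unknown, since low values showed no common step between libraries (at most 15.3% shared a ratio), so no counting interval is given. Samples were grouped by their titles.

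Genes whose 6-library mean reached 0.1 FPKM (17222) entered limma 3.58.1 (trend) in R 4.3.3 as log2(FPKM + 1), with Benjamini-Hochberg adjustment and a threshold of 0.05. On this scale the change of weakly expressed genes comes out too small. An exact permutation test was added for single genes. The tests were tried on simulated data first. The members and lists were chosen with earlier results of these data known. Named from the pathway list were, per role, the 2 largest differences with a mean of at least 1 FPKM and groups apart, plus RELA, REL, CXCL3 and CXCL8. Positions are from GENCODE release 29 (GRCh38) and promoters from RefSeq (GRCh38.p14). Alternatives were 2 pseudocounts, 2 filters, 3 scalings, robust fitting, array weights, a replicate block and each library left out. Gene-by-gene weights were added after the data were seen.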

Additional observations from a re-analysis of the deposited data

How the results depend on the processing

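The counts of calls depended on how libraries were weighted. Genes with an adjusted p under 0.05 numbered 0 in limma's comparison as reported, 1 with no filter, 1246 with array weights (whose estimation stopped before it converged) and 1355 with gene-by-gene weights, and 0 to 167 as each library was left out, the 167 without EFTUD2 replicate 3. Members with such a p numbered 2 with either kind of weights, BIRC3 and CXCL2, and 0 otherwise. Members with an unadjusted p under 0.05 numbered 2 as reported, 4 with array weights, 4 with gene-by-gene weights, 4 with the replicate block, and 2 to 4 as each library was left out, the 4 without EFTUD2 replicate 2. Same-numbered libraries did not deviate together in every pair (correlations -0.30, 0.35 and -0.09 for replicates 1 to 3). The replicates 2 did, but control replicate 2 was nearly as close to EFTUD2 replicate 1 (0.32). The highest correlation of any control with any EFTUD2 library was that of control replicate 1 with EFTUD2 replicate 3 (0.38). As not every library correlated best with its own number and the labels give no shared source, the block is an alternative only. Genes of the pathway list with an unadjusted p under 0.05 numbered 14 as reported and 23 with either kind of weights.

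NFKB1, RELB, BIRC3, CXCL2 and CCL20 kept their direction in all 17 alternatives, of which gene-by-gene weights were chosen after seeing the data. NFKB2 turned with a common sum (-0.040) and gene-by-gene weights (-0.049) and ranged from -0.19 to 0.28 over the libraries left out. BCL3 turned likewise (-0.017 and -0.0054, range -0.082 to 0.15), as did NFKBIA with gene-by-gene weights (-0.082, range -0.12 to 0.22). TNFAIP3 ranged from -0.095 to 0.78. CXCL1 turned with array weights (0.046, range -0.12 to 0.033). Outside the members, REL turned with both weights (0.036 each, range -0.17 to 0.029), RELA with the median of ratios (0.0036), and CXCL3 with pseudocounts 0.1 and 0.01 (0.015 and 0.13), array weights (0.20) and gene-by-gene weights (0.062), with a range of -0.084 to 0.10. CXCL8 ranged from -0.034 to 0.44. The cause of these turns was not tested. All are log2 fold changes, none past the adjusted threshold.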

Other observations

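Some pathway genes stood at or near 0 in these cells, or in the controls only. Of the 78 listed, 12 could not be tested, and of these CD40LG was absent from the deposited values. Among the others were the ligand IL1B (at most 0.14 FPKM), the adhesion molecule VCAM1 (at most 0.01 FPKM) and CXCL6, listed at 0 in all libraries. CXCL10, a chemokine best known as an interferon target, was listed at 0.02, 0 and 0 FPKM in the controls, against 0.12, 0.62 and 0.06 FPKM in the EFTUD2 libraries. IL6, the cytokine of the acute phase, was listed at 0.01, 0 and 0 FPKM in the controls, against 1.69, 2.97 and 0.15 FPKM in the EFTUD2 libraries. Its log2 fold change was 1.20 (standard error 0.41, limma adjusted p = 0.40). The groups did not overlap for CXCL10 or IL6, beside 7.92% of all genes tested that were higher without overlap. In both, as in CCL5, EFTUD2 replicate 2 was the highest and replicate 3 the lowest of its group, whereas CCL20 was highest in replicate 3. These genes were chosen after their values were seen. Over all genes tested, EFTUD2 replicate 2 was the highest EFTUD2 library for 42.6% and replicate 3 the lowest for 57.8%.

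Of the other genes of the list with a known role in cell survival, CFLAR, an inhibitor of caspase-8, was at 29.1, 26.6 and 24.0 FPKM in the controls, against 18.3, 19.9 and 17.8 FPKM in the EFTUD2 libraries (log2 fold change -0.48 ± 0.11, standard error, limma adjusted p = 0.39). BCL2L1, which encodes BCL-XL, was at 256.3, 209.2 and 229.5 FPKM in the controls, against 171.0, 154.7 and 176.1 FPKM in the EFTUD2 libraries (log2 fold change -0.47 ± 0.12, standard error, limma adjusted p = 0.40). The groups did not overlap for either, beside 19.4% of all genes tested that were lower without overlap. The groups overlapped for BIRC2 and BCL2A1, with log2 fold changes of -0.28 and -0.09. These 4 genes were chosen after their values were seen, and none passed the adjusted threshold. They may not cover every such gene of the list. Of its 15 targets tested, 8 had a log2 fold change above 0, among them SOD2 (0.96) and GADD45B (0.70), and 7 below 0.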
